A study of Mus musculus with 8 samples.

Results

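The genes described here are 16 genes of cultured mouse liver endothelial cells whose counts were higher with the inflammatory cytokines IL1β and TNFα in both dKO pairs of libraries and little or no higher in both WT pairs. They were chosen from the measured values. Each library's counts were divided by the library's total to give counts per 1000000 counts (CPM), and a cytokine ratio was formed within each pair of libraries of the same genotype and replicate number, as (CPM with cytokines + 0.5) / (CPM without + 0.5). A gene was kept when this ratio was at least 2 in both dKO pairs and at most 1.2 in both WT pairs, and when it had at least 5 CPM in both dKO libraries with cytokines. Symbols of collagen and solute carrier genes of the forms Col#a# and Slc#a# were left out, which removed 1 gene, Slc36a2. This left 16 of the 52636 genes in the table, 15 of them protein-coding. The cytokine ratios of these genes are therefore a description of how they were picked and carry no test.

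Expression was measured by sequencing polyadenylated RNA of endothelial cells, which form the inner lining of blood vessels. They were taken from the liver of mice of the corresponding genotype, kept in culture, and sorted as live CD45-, CD31+, VE-cadherin+ cells before RNA was prepared. The 4 groups had 2 libraries each: WT without cytokines, WT with IL1β and TNFα, dKO without cytokines, and dKO with IL1β and TNFα. The labels do not expand dKO. The design text names deletion of Erg, Fli1 or both, the genes of ETS family transcription factors that maintain endothelial identity, induced by 48 hours of 4-OHT, the active metabolite of tamoxifen. It gives 7 days of culture from the first addition of 4-OHT and then 16 hours with the cytokines before lysis. The same treatment protocol, 4-OHT included, is attached to the libraries of every group. The labels place the 4-OHT once in the medium and once in the mice. They name no Cre driver and no deleted exons, and do not say whether the libraries in a group are separate animals or separate cultures.

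Library totals ran from 23009062 to 26944030 counts, which limits precision mainly for genes of a few counts. On the scale of CPM with TMM-scaled library sizes, Erg was at 196 and 186 in WT, 208 and 201 in cytokine-treated WT, 40.1 and 91.3 in dKO, and 34.7 and 90.2 in cytokine-treated dKO (replicate 1, then replicate 2). For Fli1 the values were 161 and 177 in WT, 91.5 and 96.4 in cytokine-treated WT, 21.9 and 62.5 in dKO, and 12.4 and 35.2 in cytokine-treated dKO. Both genes were thus lower in all dKO libraries than in WT, and the dKO replicate 2 libraries kept more of both transcripts than replicate 1. The replicate 2 dKO libraries also stood apart in holding both Xist (224 and 171 TMM-scaled CPM), the transcript that silences an X chromosome in female cells, and the Y-linked Ddx3y (90.6 and 117). In the other 6 libraries, where 1 of these transcripts was high the other was below 2 TMM-scaled CPM. Ddx3y was the high one in WT replicate 1 and dKO replicate 1 and Xist in WT replicate 2, the same with and without cytokines. The WT replicates are thus not repeats of 1 sample. The p-values below set differences between groups against the spread between these libraries, and the labels do not say what else separates the replicates. Unless a replicate block is named, the fit has no term for replicate number.

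IL1β and TNFα act through separate receptors whose signals meet at the transcription factor NF-kB and at the kinases that activate AP-1. In endothelium this induces adhesion molecules, chemokines and the feedback inhibitors of NF-kB. A separate program, driven by the transcription factor NRF2, induces enzymes that repair oxidized proteins and keep glutathione and thioredoxin reduced. The 16 genes include enzymes of that program, secreted proteins, transcription factors, membrane transporters and channels, and cytoskeletal proteins, and none is a chemokine or an adhesion molecule.

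Among all genes, 233 met the conditions on the dKO ratio and the dKO level whatever their WT response. Of these, 181 (77.7%) had a WT ratio of 2 or more in at least 1 pair, 36 (15.5%) had a larger WT ratio between 1.2 and 2, and 16 (6.87%) are the genes described here. In the other direction, 399 genes met the same conditions in WT whatever their dKO response, and 142 met them in both genotypes. With the genotypes exchanged, the rule kept 55 genes. Most genes with higher counts under cytokines in dKO were therefore also higher under cytokines in WT.

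**Figure D1:**
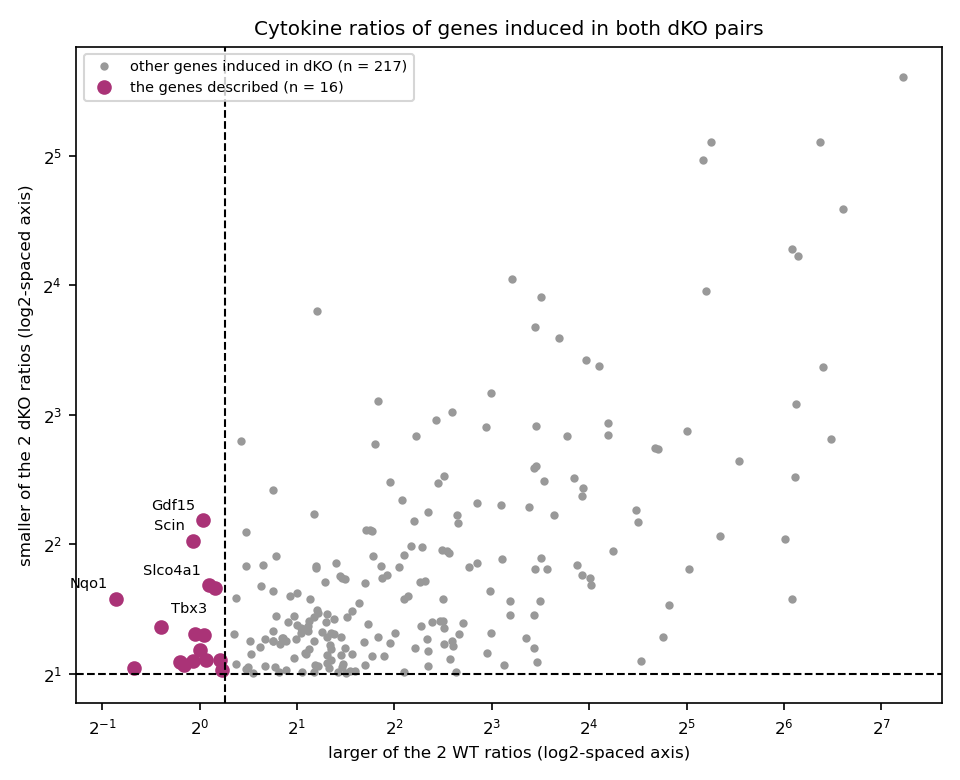
Each point is 1 of the 233 genes with a cytokine ratio of at least 2 and at least 5 CPM in both dKO pairs. The horizontal axis is the larger of the 2 WT cytokine ratios and the vertical axis the smaller of the 2 dKO ratios, both log2-spaced; dashed lines are the limits of 1.2 and 2. The 16 genes described (large points) lie at the left edge, and 181 of the 233 lie at a WT ratio of 2 or more.

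The sequences below show the DNA just before the annotated start of 5 of the genes, from RefSeq on the mouse build GRCm38.p6, read 5′ to 3′ on the gene's own strand. Scin, Gdf15 and Slco4a1 are the genes with the largest smaller dKO ratio among those near-silent, intermediate and expressed in WT. Nqo1 and Srxn1, the pair of antioxidant enzymes, were added after their values were seen. Capitals mark the TATA box letters TATAAA in Nqo1 and the AP-1 letters TGANTCA in Srxn1.
Scin, chr12:40134229-40134478, - strand: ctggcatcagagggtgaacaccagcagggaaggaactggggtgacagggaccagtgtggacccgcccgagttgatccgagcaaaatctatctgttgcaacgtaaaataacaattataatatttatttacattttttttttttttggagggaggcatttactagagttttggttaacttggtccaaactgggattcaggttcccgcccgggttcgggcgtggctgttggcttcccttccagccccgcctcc
Gdf15, chr8:70632457-70632706, - strand: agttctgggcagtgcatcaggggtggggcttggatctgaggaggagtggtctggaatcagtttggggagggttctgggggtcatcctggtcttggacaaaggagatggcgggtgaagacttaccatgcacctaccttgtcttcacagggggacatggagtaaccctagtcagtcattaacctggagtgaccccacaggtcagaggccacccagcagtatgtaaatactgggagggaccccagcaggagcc
Slco4a1, chr2:180455995-180456244, + strand: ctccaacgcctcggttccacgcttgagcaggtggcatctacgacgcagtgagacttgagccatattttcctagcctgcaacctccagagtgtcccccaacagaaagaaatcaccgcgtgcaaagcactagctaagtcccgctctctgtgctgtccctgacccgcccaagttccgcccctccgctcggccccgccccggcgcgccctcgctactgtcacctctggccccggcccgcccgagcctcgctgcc
Nqo1, chr8:107403207-107403455, - strand: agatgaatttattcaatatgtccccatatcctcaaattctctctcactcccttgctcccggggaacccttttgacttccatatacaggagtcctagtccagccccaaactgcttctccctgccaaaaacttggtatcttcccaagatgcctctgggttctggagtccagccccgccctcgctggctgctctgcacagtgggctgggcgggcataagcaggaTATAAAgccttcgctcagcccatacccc
Srxn1, chr2:152105274-152105515, + strand: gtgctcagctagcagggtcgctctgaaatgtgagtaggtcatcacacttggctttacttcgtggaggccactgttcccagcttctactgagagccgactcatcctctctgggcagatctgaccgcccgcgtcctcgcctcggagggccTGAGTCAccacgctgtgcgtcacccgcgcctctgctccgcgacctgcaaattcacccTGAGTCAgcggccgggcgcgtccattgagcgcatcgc
Srxn1 holds the AP-1 letters at 2 places, which start 94 and 37 bases before the GENCODE start, counting the last printed base as 1. The Nqo1 TATA box starts 28 bases before its GENCODE start.

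RefSeq windows of 300 bases (250 before the start to 50 after it) were matched by symbol for 14 of the 16 genes and searched on both strands. The table holds 32851 such windows of 27025 genes, and shares below are of genes with the letters in any window. The NF-kB letters GGANTTTCC were in 1 of the 14 genes, Pax9, and in 1.45% of all genes. The AP-1 letters were in Srxn1 only among the 14, and in 8.97% of all genes. The antioxidant response element TGACNNNGC, searched after Nqo1 and Srxn1 had been seen among the genes, was in 4 of the 14 (Gad2, Hpx, Srxn1 and Tal2) and in 14.0% of all genes. The ETS core AGGAAG was in 1, Tal2, against 38.4% of genes, and the longer ETS letters CCGGAAGT were in 0, against 4.31%. The remaining motifs were the C/EBP letters TTGCNNAA in Hpx and Nrarp (12.2% of genes), the hypoxia element ACGTG in Gdf15 and Nrarp (21.8%), the TATA box in Nqo1 and Tal2 (15.7%), and the interferon element GAAANNGAA in 0 (9.76%). AP-1 and antioxidant response element letters can overlap. The Srxn1 stretch printed above holds no antioxidant response element letters, so its match lies elsewhere in the windows searched. A match describes letters in this window and is no measure of binding.

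Srxn1 and Nqo1 encode antioxidant enzymes that are standard NRF2 targets. Srxn1 (chr2:152105516-152111376 of GRCm38, + strand, as all gene positions from the GENCODE M21 annotation) encodes sulfiredoxin, which restores over-oxidized peroxiredoxins. Its level was 82.1 and 71.8 CPM in WT, 77.0 and 68.3 in cytokine-treated WT, 75.9 and 60.6 in dKO, and 544 and 130.2 in cytokine-treated dKO. The untreated dKO libraries and all WT libraries lay close together, and the cytokine-treated dKO libraries stood above them, replicate 1 far more than replicate 2. The cytokine ratios were 7.13 and 2.14 in the dKO pairs and 0.94 and 0.95 in the WT pairs. Per kilobase of exon it had the highest level of the 16 genes in cytokine-treated dKO, a mean of 119.6 CPM per kb.

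Nqo1 (chr8:107388225-107403206, - strand) encodes a quinone reductase. It measured 29.4 and 18.5 CPM in WT, 13.5 and 9.98 in cytokine-treated WT, 21.5 and 12.4 in dKO, and 160.3 and 38.0 in cytokine-treated dKO. The genotypes overlapped without cytokines, and with cytokines every dKO library was above every WT library. Here the WT ratios were low, at 0.47 and 0.55, beside dKO ratios of 7.32 and 2.98. As for Srxn1, the larger ratio came from dKO replicate 1.

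Other antioxidant response genes were examined as a family, set out after the 16 genes were known but by pathway and not by values. All 13 that were tested had a larger cytokine ratio in dKO pair 1 than in pair 2, against 51.3% of all genes tested. In pair 1 the ratio of all 13 was above both WT ratios, and in pair 2 that of 12 was, against 46.5% and 44.5% of all genes. Their median ratio was 1.87 and 1.32 in the dKO pairs, and 0.84 and 0.887 in the WT pairs. Over all genes tested, the median log2 ratio was -0.12 and -0.13 in the dKO pairs and -0.23 and -0.14 in the WT pairs. The WT medians of the 13 genes thus lie near those of all genes. A ratio of 2 was reached by 6 in dKO pair 1 and by 2, Slc7a11 and Abcc1, in pair 2, and both WT ratios were at most 1.2 in 10. How many of all genes reach these limits was not counted.

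Hmox1, which encodes the heme-degrading enzyme heme oxygenase 1, was at 223 and 229 CPM in WT, 208 and 233 in cytokine-treated WT, 132 and 166 in dKO, and 657 and 232 in cytokine-treated dKO. Gclm, a subunit of the enzyme that starts glutathione synthesis, was at 91.4 and 97.6, 68.5 and 64.1, 97.3 and 87.0, and 396 and 118 CPM in the same order. Txnrd1, thioredoxin reductase, was at 204 and 237, 171 and 211, 124 and 166, and 406 and 220 CPM. In these genes the high value was that of 1 library, dKO with cytokines replicate 1. None of the 13 passed the test of a difference between the dKO and WT responses (edgeR's quasi-likelihood test, adjusted p under 0.05 over 15698 genes, which 0 genes passed). With cytokines, Slc7a11 (the cystine importer subunit) and Abcc1 (an exporter of glutathione conjugates) rose in both genotypes, and Osgin1 fell in WT.

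**Figure D2:**
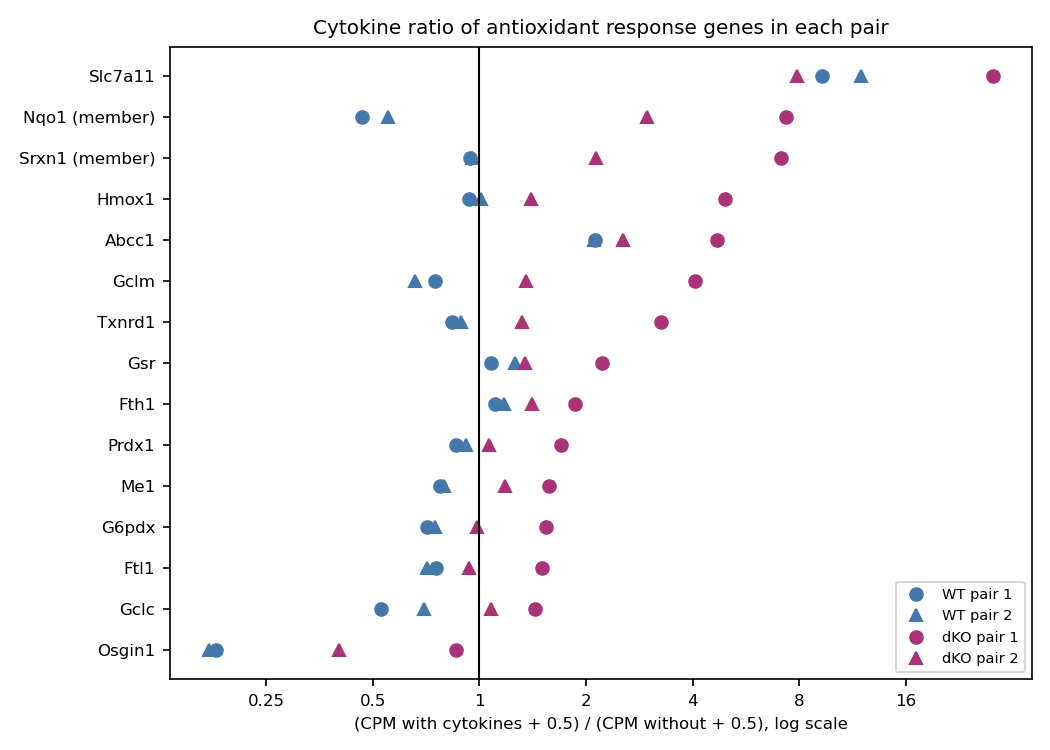
Cytokine ratio (log axis) of Nqo1, Srxn1 and the 13 other antioxidant response genes in the 4 pairs of libraries; circles are pair 1 and triangles pair 2, WT in blue and dKO in purple, and the line marks a ratio of 1. The dKO pair 1 ratio lies to the right of pair 2 in every gene shown, and Slc7a11 is the 1 gene whose dKO pair 2 ratio is below a WT ratio.

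Gdf15 and Hpx encode secreted proteins. Gdf15 (chr8:70629393-70632456, - strand), a stress-induced circulating factor of the TGF-β superfamily, was at 1.22 and 1.37 CPM in WT, 1.01 and 1.43 in cytokine-treated WT, 4.22 and 2.91 in dKO, and 49.6 and 15.0 in cytokine-treated dKO. The dKO libraries lay above WT at rest and further above it with cytokines. Its dKO ratios, 10.6 and 4.54, gave the largest smaller ratio of the 16 genes. The WT ratios were 0.88 and 1.03. Of the 5 other tested GDF ligands, 0 passed the test of the cytokine response in either genotype. The same was true of 10 tested readouts of the integrated stress response and of p53, programs for which Gdf15 is a known target. Over all genes tested, 17.4% passed in WT and 5.55% in dKO, so 0 among so few genes says little.

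Hpx (chr7:105591613-105600137, - strand) encodes hemopexin, a plasma protein that binds free heme and is made mainly in the liver. Levels were 0.461 and 0.594 CPM in WT, 0.503 and 0.616 in cytokine-treated WT, 3.43 and 1.91 in dKO, and 7.95 and 5.53 in cytokine-treated dKO. All dKO libraries were above all WT libraries, with ratios of 2.15 and 2.50 in dKO and 1.04 and 1.02 in WT. Hp, which encodes haptoglobin, the scavenger of free hemoglobin, was also higher in dKO at rest (55.4 and 59.7 against 0.671 and 1.15 CPM), but its dKO ratios were 0.985 and 0.948.

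Tbx3, Pax9 and Tal2 encode transcription factors of development, and Nrarp encodes a feedback inhibitor of Notch signaling. Tbx3 (chr5:119670669-119684724, + strand) had 0.21 and 0.705 CPM in WT, 0.126 and 0.848 in cytokine-treated WT, 2.48 and 5.90 in dKO, and 19.3 and 19.7 in cytokine-treated dKO. It was near-silent in WT with or without cytokines, and the dKO cytokine libraries agreed closely with each other. The dKO ratios were 6.64 and 3.16. The WT ratios, 0.88 and 1.12, rest on few reads: pair 1 held 5 and 3 counts, a CPM ratio of 0.60 with a 95% exact counting interval of 0.0932 to 3.09. Among 7 other tested T-box genes, Tbx5 fell with cytokines in both genotypes and the other 6 did not pass the test.

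Pax9 (chr12:56691767-56712822, + strand) was at 0.629 and 3.23 CPM in WT, 0.461 and 2.74 in cytokine-treated WT, 4.998 and 5.38 in dKO, and 13.3 and 12.01 in cytokine-treated dKO. WT replicates differed more from each other than either did from the cytokine-treated WT library of its number. The ratios were 2.52 and 2.13 in dKO and 0.85 and 0.87 in WT. Tal2 (chr4:53779705-53788712, + strand), a relative of the blood and endothelial factor Tal1, was at 0.419 and 0.52 CPM in WT, 0.294 and 0.693 in cytokine-treated WT, 2.39 and 1.56 in dKO, and 5.39 and 5.74 in cytokine-treated dKO. It had the lowest level of the 16 genes per kilobase in cytokine-treated dKO (1.87 CPM per kb), and its ratios were 2.04 and 3.03 in dKO and 0.86 and 1.17 in WT. Its relatives Tal1 and Lyl1 did not pass the test of a cytokine response in either genotype.

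Nrarp (chr2:25180758-25183339, + strand) followed another course. It was at 20.6 and 20.2 CPM in WT, 11.3 and 12.5 in cytokine-treated WT, 2.91 and 8.98 in dKO, and 8.84 and 19.04 in cytokine-treated dKO. Here the resting dKO libraries were the low ones, and of the cytokine-treated dKO libraries replicate 1 was still below all WT libraries and replicate 2 within their range. The ratios were 2.74 and 2.06 in dKO and 0.56 and 0.63 in WT. None of 10 tested Notch receptors, ligands and targets passed the test of the cytokine response in WT or in dKO, against 17.4% and 5.55% of all genes.

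Slco4a1, Atp2b4 and Gja4 encode membrane proteins. Slco4a1 (chr2:180456245-180474867, + strand), an organic anion transporter that carries thyroid hormone among other substrates, was at 33.2 and 21.1 CPM in WT, 14.9 and 22.6 in cytokine-treated WT, 0.0869 and 4.08 in dKO, and 5.56 and 14.2 in cytokine-treated dKO. It was the 1 gene of the 16 whose dKO libraries stayed below all WT libraries also with cytokines. The dKO ratios were 10.3 and 3.21 and the WT ratios 0.46 and 1.07. In dKO pair 1 the untreated library held 2 counts and the treated one 137, a CPM ratio without the added 0.5 of 63.9, with a 95% exact counting interval of 17.4 to 533. Both bounds reflect counting error only, and reads counted without molecular identifiers can be copies of the same molecule. Of 4 tested relatives, Slco3a1 rose with cytokines in both genotypes. Slco5a1 passed as higher and Slco2a1 as lower in WT only. Their log2 fold changes in WT and dKO had the same sign (2.25 and 1.35 for Slco5a1, -0.98 and -0.65 for Slco2a1).

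Atp2b4 (chr1:133699457-133801041, - strand) encodes a pump that moves calcium out of the cell across the plasma membrane. It measured 49.3 and 49.0 CPM in WT, 47.7 and 41.8 in cytokine-treated WT, 8.39 and 23.9 in dKO, and 63.4 and 59.7 in cytokine-treated dKO. Without cytokines the dKO libraries were the lowest of the 8, and with cytokines they were the highest. The ratios were 7.19 and 2.47 in dKO and 0.97 and 0.85 in WT. The 1 other calcium pump gene tested, Atp2b1, had ratios of 1.03 and 1.13 in dKO.

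Gja4 (chr4:127311421-127314039, - strand) encodes connexin 37, a gap junction protein of arterial endothelium. Its level was 4.44 and 3.64 CPM in WT, 4.45 and 1.70 in cytokine-treated WT, 50.3 and 29.9 in dKO, and 133 and 68.6 in cytokine-treated dKO. All dKO libraries were above all WT libraries. Per kilobase of exon it came after Srxn1 and Nqo1 in cytokine-treated dKO, with 59.9 CPM per kb against 63.9 for Nqo1. The ratios were 2.63 and 2.27 in dKO, and 1.00 and 0.53 in WT. Of the 4 other connexin genes tested, Gja1 rose with cytokines in dKO (log2 fold change 1.47, SE 0.18, adjusted p = 0.0125 by edgeR's quasi-likelihood test, ratios 3.11 and 2.05). In WT the ratios of Gja1 were 1.18 and 1.39, the latter above the limit of the rule.

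Scin and Gas2l3 encode proteins that bind the cytoskeleton. Scin (chr12:40059769-40134228, - strand) encodes scinderin, a calcium-dependent actin-severing protein of the gelsolin family. Its level was 0.461 and 0.668 CPM in WT, 0.252 and 0.616 in cytokine-treated WT, 3.09 and 11.9 in dKO, and 36.9 and 50.1 in cytokine-treated dKO. The libraries of WT, dKO and dKO with cytokines did not overlap, in that rising order, and the ratios were 10.4 and 4.07 in dKO and 0.78 and 0.96 in WT. Its relative Gsn, gelsolin, fell with cytokines in both genotypes. Capg passed as higher in WT only, with log2 fold changes of 0.69 in WT and 0.49 in dKO.

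Gas2l3 (chr10:89408823-89443967, - strand), whose product links actin and microtubules, was at 2.93 and 2.08 CPM in WT, 1.76 and 1.81 in cytokine-treated WT, 4.30 and 2.73 in dKO, and 20.4 and 6.28 in cytokine-treated dKO. The cytokine-treated dKO libraries were the highest of the 8, replicate 1 well above replicate 2. The ratios were 4.36 and 2.10 in dKO and 0.66 and 0.90 in WT.

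Hspa4l and Gad2 are enzymes or chaperones with no shared family. Hspa4l (chr3:40744495-40796103, + strand), a chaperone of the heat shock protein 110 group, was at 74.0 and 68.9 CPM in WT, 66.5 and 71.0 in cytokine-treated WT, 41.2 and 51.9 in dKO, and 142 and 128 in cytokine-treated dKO. Replicates lay close together, with dKO below WT at rest and above it with cytokines. The ratios were 3.40 and 2.45 in dKO and 0.90 and 1.03 in WT. Of 14 other tested genes of the heat shock protein 70 and 110 families, Hspa5 and Hyou1, chaperones of the endoplasmic reticulum, rose with cytokines in both genotypes and Hspa12a fell in both. Hspa1b, Hspa9 and Hspa13 passed as higher in WT only. The log2 fold changes in WT and dKO were alike for Hspa9 (0.37 and 0.43) and Hspa13 (0.41 and 0.39), and were 2.44 and 0.72 for Hspa1b.

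Gad2 (chr2:22622205-22693874, + strand) encodes a glutamate decarboxylase, the enzyme that makes the transmitter GABA in neurons and pancreatic islets. It had 0.0419 and 0.445 CPM in WT, 0.126 and 0.578 in cytokine-treated WT, 13.5 and 17.0 in dKO, and 42.5 and 37.0 in cytokine-treated dKO. The genotypes were far apart in every comparison of libraries, and within dKO the cytokine-treated libraries were the higher ones. The dKO ratios were 3.07 and 2.15. The WT ratios of 1.15 and 1.14 rest on few reads, since WT pair 1 held 1 and 3 counts (CPM ratio 3.002, 95% exact counting interval 0.241 to 158). Gm12946 (chr4:126145979-126147735, + strand), annotated as an antisense transcript, was at 10.7 and 14.5 CPM in WT, 6.38 and 10.9 in cytokine-treated WT, 0.478 and 4.38 in dKO, and 7.26 and 12.01 in cytokine-treated dKO. It was low in resting dKO, and with cytokines both dKO libraries lay within the WT range.

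**Figure D3:**
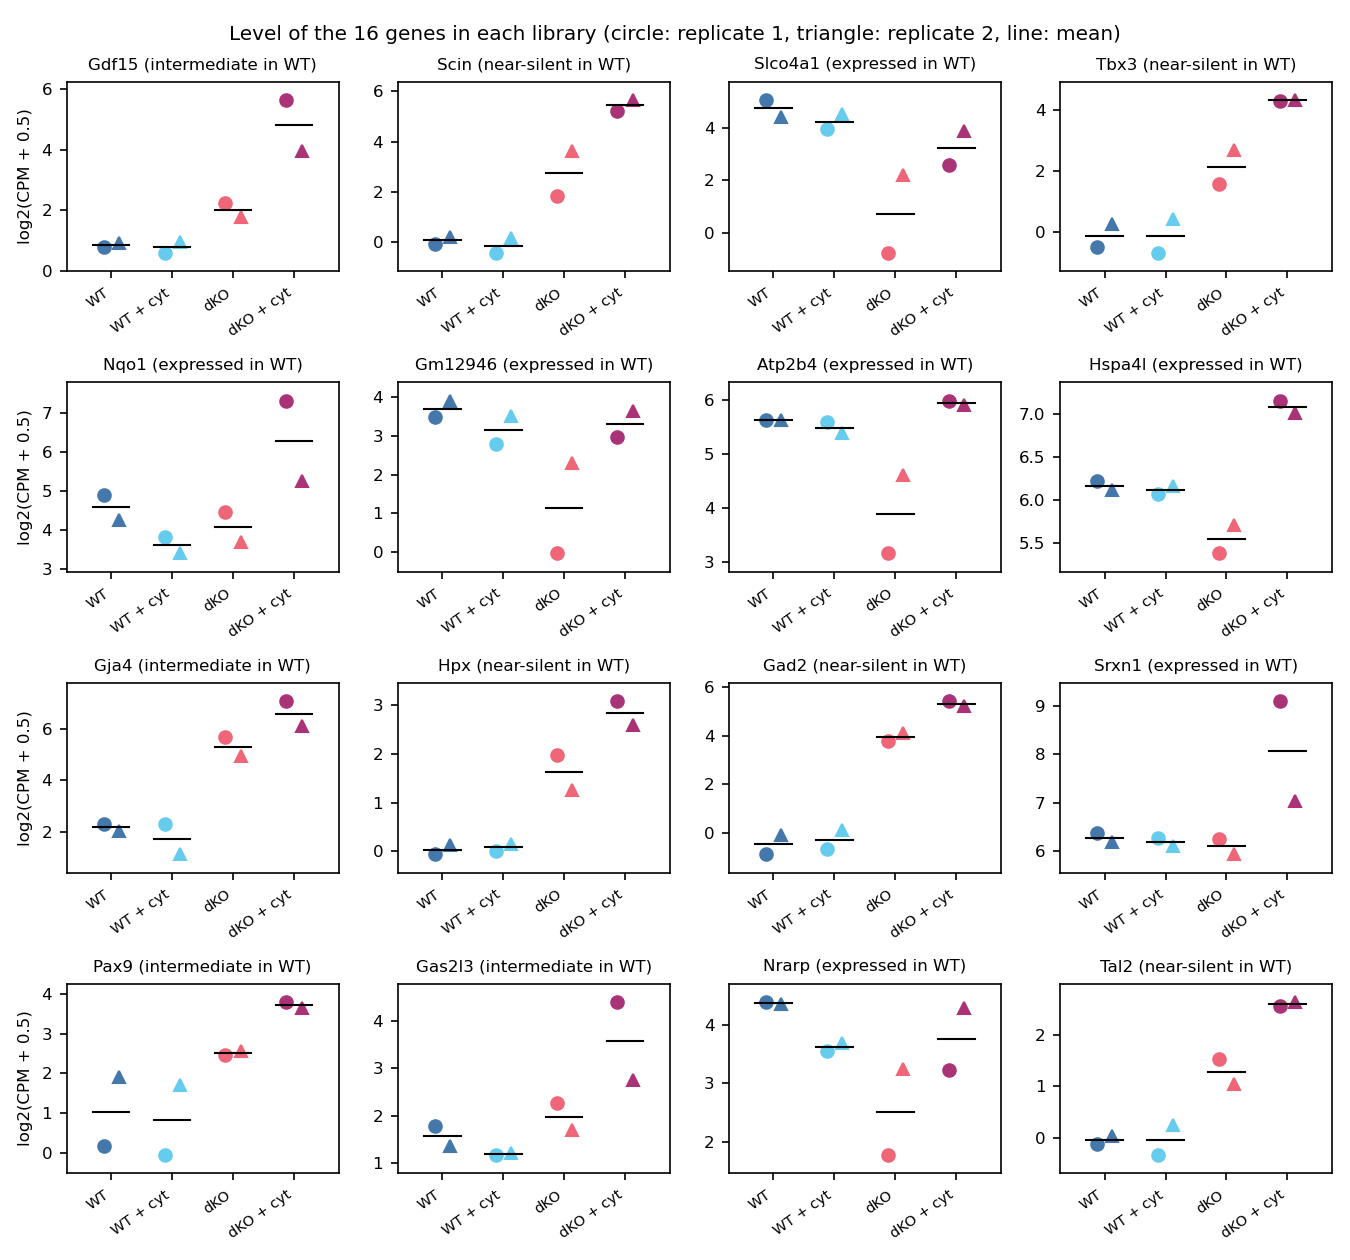
Level of each of the 16 genes in the 8 libraries, as log2(CPM + 0.5) with CPM from library totals; cyt stands for IL1β and TNFα, circles are replicate 1, triangles replicate 2 and lines the group means. The vertical axis differs between panels. In 13 panels both cytokine-treated dKO libraries lie above all 4 WT libraries, and Slco4a1 is the panel where they lie below.

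The 16 genes fell into 3 classes by their WT level. Near-silent were 5 genes (Scin, Tbx3, Gad2, Hpx and Tal2), with under 1 CPM in all 4 WT libraries, which is 1 to 22 counts, so the 0.5 CPM added in the ratio weighs heavily in their WT ratios. Expressed were 7 (Slco4a1, Nqo1, Gm12946, Atp2b4, Hspa4l, Srxn1 and Nrarp), with at least 5 CPM in all 4 WT libraries. The other 4 (Gdf15, Gja4, Pax9 and Gas2l3) were intermediate. Both cytokine-treated dKO libraries were above all 4 WT libraries in 13 genes and both below them in 1 (Slco4a1). Of the remaining 2, Gm12946 had both within the WT range, and Nrarp had 1 below it and 1 within it.

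The ratio in dKO pair 1 ran from 2.04 to 10.6 with a median of 5.50, and that in pair 2 from 2.06 to 4.54 with a median of 2.48. Over the 233 genes with the same dKO conditions the medians were 4.28 and 3.03. Pair 1 gave the larger ratio in 14 of the 16 genes (the other two were Hpx and Tal2) and in 183 of the 233. Levels in WT pairs gave ratios from 0.458 to 1.15 in pair 1 and from 0.531 to 1.17 in pair 2, and in 8 genes both WT ratios were below 1. With TMM-scaled CPM this number was 5 (Gas2l3, Gm12946, Nqo1, Nrarp and Pax9), because the median gene's log2 ratio was -0.23 and -0.14 in the WT pairs with library totals and close to 0 with TMM. In the dKO pairs that median was -0.12 and -0.13. All 16 genes kept dKO ratios of at least 2 with TMM-scaled CPM, and 14 kept WT ratios of at most 1.2, while Gad2 (1.204 in WT pair 2) and Tal2 (1.24) were above that limit.

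**Figure D4:**
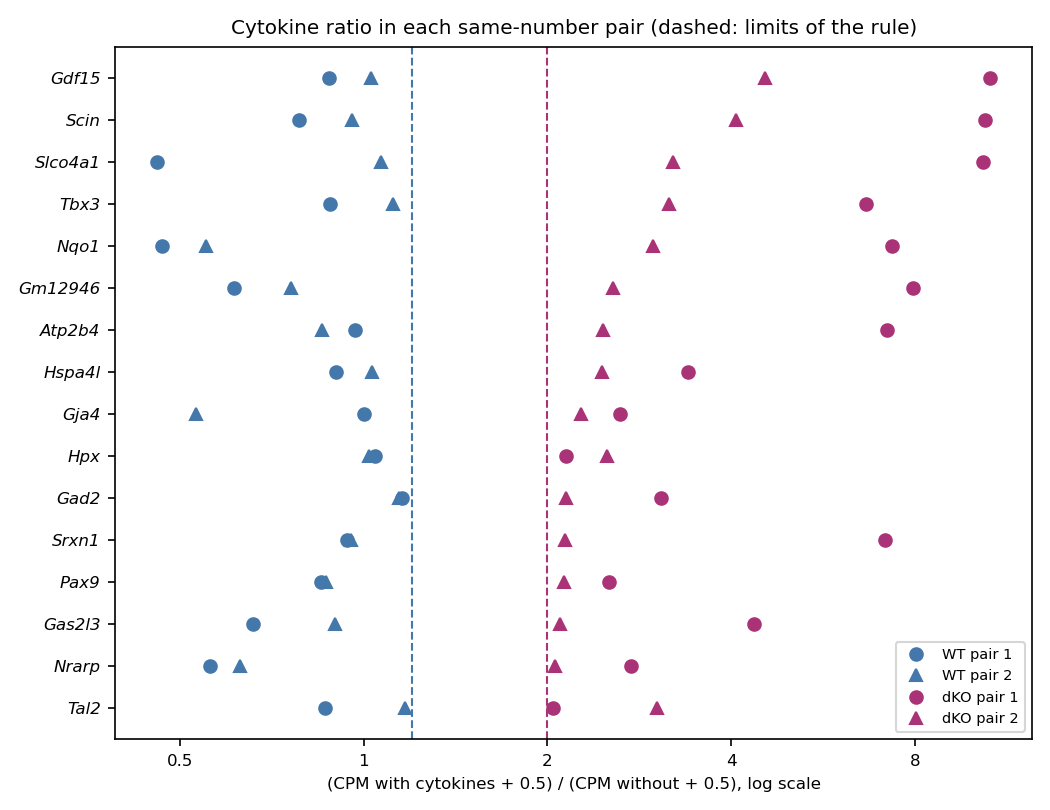
Cytokine ratio of each gene in the 4 pairs of libraries (log axis); circles are pair 1 and triangles pair 2, WT in blue and dKO in purple, and dashed lines mark the limits of 1.2 and 2 that chose the genes. The dKO pair 1 circles spread from 2.04 to 10.6, and the dKO pair 2 triangles from 2.06 to 4.54.

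In the fit over all genes, contrasts that the rule used are given as counts only, and nothing is read from them about the 16 genes. For cytokines in dKO, 549 of 15698 genes were higher at an adjusted p under 0.05 (3.5%, with 5.55% passing in either direction), and so were 3 of the 16 (Atp2b4, Gdf15 and Hspa4l). At an unadjusted p under 0.05 the number was 14 of the 16 (23.4% of all genes), with DESeq2 13 (11.8%), and with a replicate block in the edgeR fit 14 (24%). Without any 1 of the 4 WT libraries, or without cytokine-treated dKO replicate 1, Hspa4l alone of the 16 passed. The number also moved when other dKO libraries were left out, and so did the number of all genes called. These fits have 1 library in a dKO group, and nothing is read from their counts. The number of all genes called for cytokines in dKO fell from 872 to between 130 and 332 without any 1 WT library or either dKO replicate 1 library.

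For cytokines in WT, 17.4% of all genes passed (9.72% higher and 7.69% lower) and 0 of the 16 did. The number was also 0 at an unadjusted p under 0.05 (33.4% of all genes) and with DESeq2 (21.9%). It was 1, Nrarp, with a replicate block (37.9%) and without both dKO replicate 2 libraries. Between the genotypes with cytokines, 34% of all genes passed, 18.6% being higher in dKO, and 11 of the 16 were higher in dKO.

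The difference between the dKO and WT responses passed for 0 of 15698 genes (0%), the smallest adjusted p being 0.1004, although 10.7% of all genes and 8 of the 16 had an unadjusted p under 0.05. Which of the 16 passed depended on the fit. DESeq2 called 2.49% of all genes and 4 of the 16 (Atp2b4, Gdf15, Hspa4l and Nqo1). With a replicate block, edgeR called 6.03% of all genes and 7 of the 16 (Gas2l3, Gdf15, Gja4, Hspa4l, Nqo1, Nrarp and Pax9). Hspa4l was called with no filter on low counts, Srxn1 without cytokine-treated dKO replicate 2, and 5 of the 16 (Atp2b4, Gdf15, Hspa4l, Nrarp and Srxn1) without both dKO replicate 2 libraries. Over all genes, 41 passed without cytokine-treated WT replicate 2, 15 without cytokine-treated dKO replicate 2, and 0 without any other 1 library.

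The comparison of dKO with WT without cytokines is a contrast the rule does not name, but it shares libraries with the rule. A low untreated dKO level raises the dKO ratio and so helps a gene to enter, and a gene with little WT expression enters only if its dKO level reaches 5 CPM with cytokines. Of the 16 genes, 6 were higher in resting dKO (13.4% of all genes were) and 2 were lower (9.66% of all genes), by the quasi-likelihood test of edgeR, adjusted by Benjamini-Hochberg over 15698 genes; 23% of all genes passed in either direction. The median log2 fold change of the 16 was 1.10, against 0.28 over the 142 genes meeting the cytokine conditions in both genotypes and 0.02 over all genes tested. In those 142 genes, 38 were higher and 13 lower. They had to reach 5 CPM in both cytokine-treated WT libraries, which a gene near-silent in WT cannot do. The medians therefore also reflect how each group of genes was chosen.

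The 6 genes higher in resting dKO were Gja4 and the 5 that were near-silent in WT, a class set by the same WT libraries, so that the split by class is no separate finding. Gad2 had a log2 fold change of 6.02 (SE 0.73, adjusted p = 0.00565), Scin 3.83 (SE 0.72, adjusted p = 0.0174) and Gja4 3.48 (SE 0.60, adjusted p = 0.0146). Tbx3 had 3.28 (SE 0.83, adjusted p = 0.0382), Hpx 2.48 (SE 0.44, adjusted p = 0.0130) and Tal2 2.21 (SE 0.46, adjusted p = 0.0198). In each of these 6 genes both dKO libraries were above both WT libraries. Atp2b4 and Hspa4l, both expressed in WT, were lower in resting dKO, with log2 fold changes of -1.48 (SE 0.41, adjusted p = 0.0498) and -0.47 (SE 0.12, adjusted p = 0.0325).

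The other 8 genes did not pass. Slco4a1 (-3.58, SE 1.16, adjusted p = 0.0740), Gm12946 (-2.26, SE 0.84, adjusted p = 0.102) and Nrarp (-1.65, SE 0.53, adjusted p = 0.0699) had both dKO libraries below both WT libraries. Gdf15 (1.61, SE 0.63, adjusted p = 0.112) and Pax9 (1.55, SE 0.90, adjusted p = 0.252) had both above. Gas2l3 (0.65, SE 0.59), Nqo1 (-0.33, SE 0.71) and Srxn1 (-0.01, SE 0.62) overlapped between the genotypes, Gas2l3 with library totals only. By non-overlap of libraries, dKO was above WT at rest in 8 genes, below in 5 and overlapping in 3. The share of all genes without overlap was not computed, so these counts are a description only.

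These calls rest on few libraries. The share of all genes passing at rest is not given for the fits that follow, so they describe single genes only. Without WT replicate 1, or without WT replicate 2, only Gad2 stayed among the higher genes, and without dKO replicate 1 only Gad2 and Scin did. Without dKO replicate 2, which kept more Erg and Fli1, Tbx3 left the higher genes, and Slco4a1, Gm12946 and Nrarp joined the lower ones. Slco4a1 then had a log2 fold change of -8.00, set by the 2 counts in the 1 dKO library left. The call for Atp2b4 or for Hspa4l, or for both, was lost in 7 of the 8 fits that left out 1 library, all but the fit without dKO replicate 2.

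**Figure D5:**
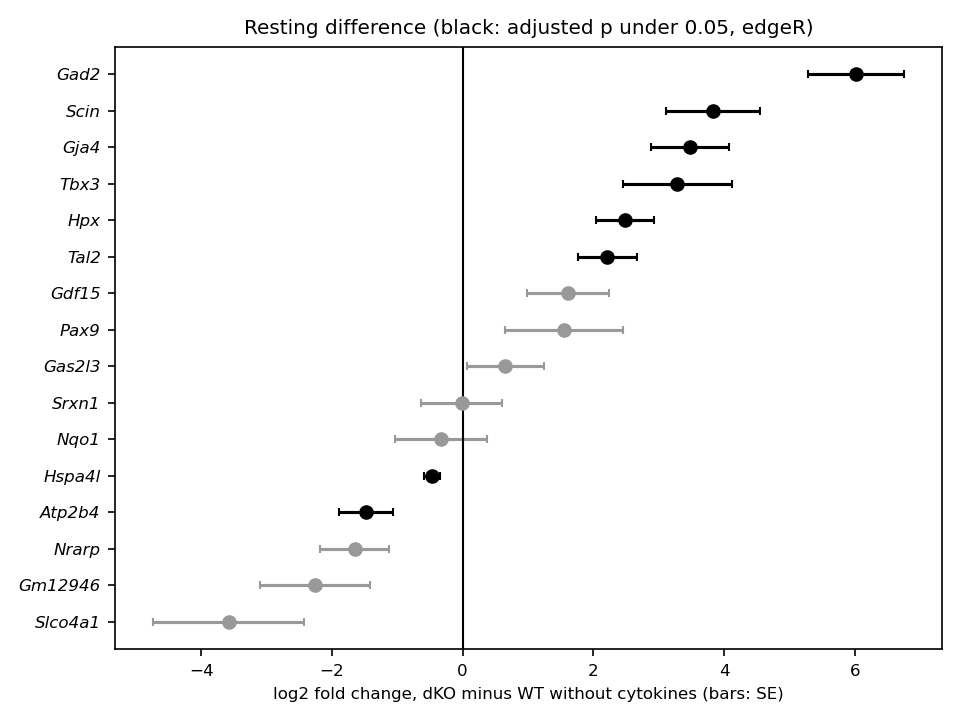
Difference between dKO and WT without cytokines for each of the 16 genes, as the log2 fold change with its standard error from the edgeR fit over 8 libraries (2 in each group); black points passed an adjusted p of 0.05. On the higher side 6 genes passed, up to 6.02 for Gad2, and Atp2b4 and Hspa4l on the lower side.

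Few of the 16 genes belonged to the lists examined alongside them. None was among the chemokines and cytokines, the NF-kB subunits and feedback genes or the interferon response genes. Of 48 tested chemokines and cytokines, 24 rose with cytokines in WT and 14 in dKO, and 0 fell in either. For 33 NF-kB genes the numbers were 24 higher in WT, and 21 higher and 1 lower in dKO. In the interferon response list, 45 of 49 rose in WT and 4 in dKO, with median log2 fold changes of 3.43 and 0.18 against -0.01 over all genes in both genotypes, and 0 of the 49 passed the test of the difference between responses.

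In the lists that hold members, some genes rose and some fell with cytokines. Over all genes tested, 9.72% rose and 7.69% fell in WT, and 3.5% rose and 2.06% fell in dKO. Some of the counts below lie near these shares. Of 49 tested stress and immediate early genes, the list of Nqo1 and Srxn1, 9 rose and 2 fell with cytokines in WT, and 6 rose and 1 fell in dKO. Of 76 growth factors and morphogens, the list of Gdf15, 4 rose and 13 fell in WT, and 6 rose and 4 fell in dKO. The acute-phase list of Hpx had 7 higher and 4 lower of 52 in WT, and 2 higher and 3 lower in dKO. The list of mesenchymal and lineage transcription factors, with Tbx3, had 3 higher and 6 lower of 52 in WT, and 0 higher and 1 lower in dKO. These lists were chosen with earlier results of these data known, and their counts are a description.

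Markers of endothelium and of other cell types moved with genotype. On the TMM-scaled CPM scale, the summed level of 20 endothelial markers, all at 1 CPM or more in some library, was 12004 to 12096 CPM in WT, 7387 to 7668 in cytokine-treated WT, 2428 to 4752 in dKO and 2224 to 3556 in cytokine-treated dKO. For 15 markers of liver sinusoidal endothelium, 12 of them at 1 CPM or more, the sums in the same order of groups were 2740.45 to 2866, 2025 to 2079.95, 409 to 941 and 294 to 695 CPM. The 20 genes marking stellate cells, fibroblasts and pericytes, 13 of them at 1 CPM or more, summed to 9260.04 to 9451, 10109 to 10891, 13605 to 17963 and 15409 to 19291 CPM in the same order of groups, mostly Dcn (9024 and 9174 CPM in WT, 13429 and 11699 in dKO). Of the 15 tested, 8 were higher in resting dKO, with a median log2 fold change of 3.23, among them Pdgfra (2.07 and 3.67 CPM in WT, 933 and 615 in dKO). The 14 hepatocyte markers summed to 5.06 to 5.53, 3.13 to 4.36, 187 to 309 and 166 to 201 CPM, from Ahsg, Hp and Trf, while 8 of them, Ttr and Hnf4a included, were at 0 in every library. The 15 markers of cholangiocytes and mesothelium, with 9 at 1 CPM or more, summed to 20.4 to 20.97, 8.56 in both, 76.5 to 125 and 163 to 273 CPM, the last mostly from Spp1 (133 and 244 CPM). Leukocyte markers summed to 254 to 398, 527 to 555, 202 to 204 and 140.3 to 180.3 CPM, almost wholly Cd14, with Cd3e and Tyrobp among those at 0 everywhere. Between untreated and treated dKO libraries, the contrast that chose the 16 genes, each sum moved in the same direction in both same-number pairs. Endothelial sums were lower with cytokines (2428 to 2224 CPM in pair 1, 4752 to 3556 in pair 2). So were the liver sinusoidal sums, the hepatocyte sums (309 to 201 and 187 to 166) and the leukocyte sums. Stellate cell sums were higher (17963 to 19291 and 13605 to 15409), as were those of cholangiocytes and mesothelium. Across replicates, the group ranges of the endothelial, liver sinusoidal, stellate cell and hepatocyte sums overlapped. The part of these markers in the results was not tested. In bulk libraries, fewer cells of a type and less RNA per cell cannot be told apart.

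The thresholds cut through a continuum. Just inside the dKO ratio limit of 2 were Tal2 at 2.04, Nrarp at 2.06 and Gas2l3 at 2.10, and just outside it Nr4a2 at 1.94, Tcim at 1.93 and Aldh1l2 at 1.92. For the limit of 5 CPM, Tal2 (5.39), Hpx (5.53) and Slco4a1 (5.56) were just inside, and Nog (4.42), Lama1 (3.12) and Wnt11 (2.74) just outside. At the WT limit of 1.2, Tal2 (1.17), Gad2 (1.15) and Tbx3 (1.12) were just inside, and Cftr (1.28), Spp1 (1.29) and Prkar2b (1.30) just outside. Tal2 was thus the gene nearest to all 3 limits. Only 4 genes, Gdf15, Scin, Slco4a1 and Tbx3, had a dKO ratio of 3 or more in both pairs.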

How the data were processed

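The data are 1 table of read counts per Ensembl gene for 8 libraries of sorted, cultured mouse liver endothelial cells. The counts are as deposited by the authors, raw whole numbers whose totals differ between libraries. The submitters' processing notes name the build GRCm38, STAR 2.7.6a and FastQC 0.11.5, without roles. Not given in the sources used here are the counting program, its strand setting and the annotation release. Per the labels' protocols, an unstranded or a stranded kit was used, and not which for which library, so reads of opposite strands may be shared. This touches 3.74% of the exon bases of Pax9 (shared with Slc25a21) and 1.74% of those of Tbx3 (Tbx3os1).

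Libraries were grouped by the genotype and treatment labels, and 52403 of 52636 identifiers were matched to a symbol. CPM from library totals, with 0.5 added in each ratio, chose the 16 genes, all of which passed the filter on low counts. Tests used edgeR 4.0.16 in R 4.3.3 (TMM scaling, filterByExpr by group, robust quasi-likelihood fit, 1 coefficient for each of 4 groups). They covered 15698 genes with 4 residual degrees of freedom and a common biological coefficient of variation of 24.3%, were two-sided, and were adjusted by Benjamini-Hochberg over all genes in each of 5 contrasts at 0.05. Standard errors were derived from the fitted change and its test statistic. The script was tested on simulated counts. DESeq2 1.42.0 and the other alternatives are given in the closing section.

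Members, gene lists and the naming rule were chosen with earlier results of these data known. Named genes were Erg, Fli1, the 15 of the 16 genes with a non-provisional symbol, and the 3 genes nearest to each threshold on either side. Gm12946, the related genes (15 families, chosen by family once the 16 were known) the cell type markers, Xist, Ddx3y, the overlapping genes Slc25a21 and Tbx3os1, and Slc36a2 stand outside that rule.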

Additional observations from a re-analysis of the deposited data

How the results depend on the processing

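The number of genes kept by the rule moved with its limits. It was 39 with a dKO ratio of at least 1.5 and 4 with at least 3, 26 with at least 1 CPM in dKO and 10 with at least 10 CPM, and 8 with a WT ratio of at most 1.0 and 27 with at most 1.5. With 0.1 or 1 CPM added in place of 0.5 it was 15, and with TMM-scaled CPM 18, of which 14 were among the 16. From 1 pair in each genotype it was 23 to 107, the latter without replicate 2. Pairing libraries of unlike number gave 8 genes, 4 of them among the 16 (Atp2b4, Gdf15, Hspa4l and Scin).

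The labels give libraries of different groups the same replicate number without saying that it marks a shared animal or day. Within each genotype, libraries of the same number shared their Xist and Ddx3y pattern, a hint from the data and not from the labels. Deviations from the group means correlated at 0.43 between WT libraries of the same number and at 0.69 between dKO libraries, and at 0.02 to 0.13 across genotypes. With a replicate block within each genotype, 5943 genes passed for cytokines in WT (2733 without the block), 3769 in dKO (872), and 947 for the difference between responses (0). Of the 16 genes, 1, 14 and 7 passed in these comparisons. The resting comparison used another block, with replicate number shared by both genotypes, although deviations correlated little across genotypes. In that fit 6 of the 16 genes were higher and 3 lower in resting dKO, and 4645 of all genes passed (3617 without the block). With DESeq2, 1852 genes passed in dKO, 391 for the difference between responses, and 5 of the 16 were lower at rest. Of all genes, 4486 passed at rest with DESeq2, also more than in the main fit. With no filter on low counts, 75 genes passed for the difference, and 3 of the 16 were higher and 1 lower at rest. The number of all genes passing at rest is not given for this fit.

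Leaving out 1 library at a time gave 413 to 2749 genes for cytokines in WT, 130 to 731 in dKO, 0 to 41 for the difference between responses and 1621 to 5523 for dKO against WT with cytokines (5343 with all libraries). It left 1 to 6 of the 16 genes higher and 0 to 5 lower in resting dKO. Without both dKO replicate 2 libraries, chosen after seeing the data, 4417 genes passed in WT, 1339 in dKO and 193 for the difference, and 5 of the 16 were lower at rest. With only the libraries without cytokines, 0 of the 16 were lower at rest. Fits with 1 library in a group assume that it varies like the other groups. The resting difference changed sign only for Nqo1 and Srxn1, neither of which passed in any fit. It became 0.00697 and 0.0551 without WT replicate 1, 0.0477 and 0.181 without dKO replicate 2, and 0.0313 and 0.166 without both dKO replicate 2 libraries. Without dKO replicate 1 it was -0.85 for Nqo1 and -0.25 for Srxn1, the lowest of the fits that left out 1 library. The cause of these shifts was not tested. Depth limits the WT ratios of the 5 genes that were near-silent in WT.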
